A study of Homo sapiens with 6 samples.

Results

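The genes described here are 7 genes of cholesterol synthesis and of its sterol-sensing control, taken by name from the deposited expression table: SREBF2, INSIG1, HMGCS1, SQLE, TM7SF2, EBP and DHCR7. All 7 were among the 13117 genes of the table and passed the filter on low values that left 11526 genes. The samples were SNU449 cells, an established human hepatocellular carcinoma line labelled wild type, that carried FOXO1AAA in the doxycycline-inducible vector pInducer20. FOXO1 is a transcription factor that AKT inactivates by phosphorylation, and FOXO1AAA is the mutant that escapes this. Over 48 h, 3 libraries came from cells without the drug (Cont) and 3 from cells given 2 µM doxycycline hydrochloride (Dox). The control cells held the construct too, and no library had the drug without the construct, so effects of doxycycline itself and of the construct cannot be told apart. Whether the line is 1 clone, and whether its libraries stem from separate cultures, was not stated. The p-values therefore measure only the spread between samples, possibly technical. The label "Cholesterol synthesis and LDL uptake" fits 4 enzymes of the cholesterol pathway, 1 enzyme of the mevalonate pathway and 2 regulators. No lipoprotein receptor gene is among the 7.

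Cells make cholesterol from acetyl-CoA through mevalonate, squalene and lanosterol. The transcription factor SREBP2, encoded by SREBF2, is held in the endoplasmic reticulum by the escort protein SCAP and the INSIG proteins when sterols are plentiful. When sterols run low, it is moved to the Golgi, cut by proteases, and switches on genes of sterol synthesis and of LDL uptake, INSIG1 among them. The liver is a main site of both processes.

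FOXO1, the gene of the construct, was at FPKM (fragments scaled to transcript length and to library size) of 0.741 to 0.889 in Cont and of 2.01 to 3.50 in Dox. Reads from the construct and from the cells' own FOXO1 gene cannot be told apart. Relative depth, read from the steps of the lowest values, ran from 0.790 to 1.31 of the mean library. On a scale set by transcript length, each of the 7 genes had roughly 494 to 12161 reads per library, an estimate that is rough. Within a group the libraries correlated at a median r of 0.992 to 0.996 across 11526 genes, which are not independent replicates. Of 12 hepatocyte markers, 4 were measured, and CPS1, a urea cycle enzyme gene, was the only one to pass the filter (FPKM 12.1 to 14.5 over the 6 libraries). ALB, the albumin gene, was at FPKM of 0.0941 to 0.571 in Cont and 0.850 to 1.71 in Dox. For immune cells CD14 was the 1 marker measured of 10 (FPKM 1.73 to 2.38), and the 2 measured endothelial markers of 5 were below FPKM 1 in every library. Of 7 liver line and epithelial markers, 4 were measured, and the 3 tested (AFP, KRT8 and KRT18) all fell. AFP overlapped between groups (FPKM 7.34 to 17.1 in Cont and 4.65 to 8.62 in Dox). Of 8 tested mesenchymal markers 4 rose and 4 fell, where 37.6% of all tested genes rose and 42.8% fell. The part of these markers in the results was not tested.

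Promoter sequences are shown for both regulators, for HMGCS1, the earliest step in the set, and for TM7SF2, the 1 gene that went up. RefSeq windows on GRCh38.p14, from 250 bases before to 50 bases after a start site, matched 6 of the 7 genes (all but SQLE) in 8 windows. The printed stretch of each ends before the earliest GENCODE 29 start of its gene. The windows of EBP and DHCR7 lie past that start and are not printed. The stretches are chr22:41832855-41833078 (plus strand) for SREBF2, chr7:155297628-155297775 (plus) for INSIG1, chr5:43313513-43313662 (minus) for HMGCS1 and chr11:65111622-65111844 (plus) for TM7SF2. Capitals mark matches on either strand to TCACNCCAC (the core of the sterol regulatory element that SREBP proteins bind), CCAAT (bound by NF-Y; ATTGG on the other strand) or GGGCGG (bound by Sp1; CCGCCC on the other strand).
SREBF2: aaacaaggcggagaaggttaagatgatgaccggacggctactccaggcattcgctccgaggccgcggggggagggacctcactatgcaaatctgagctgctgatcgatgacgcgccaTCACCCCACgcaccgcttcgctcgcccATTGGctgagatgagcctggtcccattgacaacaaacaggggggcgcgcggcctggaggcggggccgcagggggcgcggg
INSIG1: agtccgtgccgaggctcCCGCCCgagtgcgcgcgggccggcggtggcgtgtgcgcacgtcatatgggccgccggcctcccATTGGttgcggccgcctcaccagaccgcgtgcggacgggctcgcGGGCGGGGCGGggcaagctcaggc
HMGCS1: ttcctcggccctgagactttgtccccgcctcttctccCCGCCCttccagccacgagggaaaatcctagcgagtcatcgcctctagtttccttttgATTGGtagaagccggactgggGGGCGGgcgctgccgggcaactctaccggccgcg
TM7SF2: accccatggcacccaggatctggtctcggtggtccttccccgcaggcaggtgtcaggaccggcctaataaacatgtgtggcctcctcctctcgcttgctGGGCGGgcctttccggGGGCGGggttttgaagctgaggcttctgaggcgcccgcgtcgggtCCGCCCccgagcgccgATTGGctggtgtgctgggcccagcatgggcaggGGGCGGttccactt

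The sterol element core was found in 1 of the 8 windows, that of SREBF2, 133 to 125 bases before its start, while 1.13% of all 35116 promoter windows held it. In the same window CCAAT lay on the other strand, 106 to 102 bases before the start. CCAAT was in 6 of the 8 windows, at least 1 for each of the 6 genes, against 34.6% of all windows. GGGCGG was in 7 of the 8, against 45.0% of all windows. Copies of it overlap in INSIG1 and, past the printed stretch, in SREBF2. The exact forkhead sequence GTAAACA was in 0 of the 8 and in 3.42% of all windows, and variants of it were not searched. A match describes letters and is not a shown binding site. Sequences were searched only as written, so no match says nothing of variant sites inside these windows or of factors outside them.

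Of the 7 genes, 6 fell and 1 rose in Dox (limma on log2(FPKM + 1), Benjamini-Hochberg adjusted p under 0.05 over all tested genes). The falls were those of SREBF2, INSIG1, HMGCS1, SQLE, EBP and DHCR7, and the rise was that of TM7SF2. The background was wide: 80.4% of all tested genes passed the same test, 42.8% lower and 37.6% higher in Dox, so a call alone sets none of the 7 apart. Of the calls, 46.7% were higher in Dox, and 59.0% when values were scaled to TPM without the mitochondrially encoded genes. In all 7 the Cont and Dox libraries did not overlap, as in 82.1% of tested genes. Their median log2 change was -1.01, beside -0.06 for all tested genes. A fall of at least 1 on the log2 scale was reached by SREBF2, SQLE, EBP and DHCR7 (16.6% of tested genes did so), and a rise of at least 1 by TM7SF2 (16.3% did so). Over the alternative settings SREBF2 (-1.08 to -0.77) and DHCR7 (-1.28 to -0.93) did not always reach a fall of 1. All log2 changes are differences of mean log2(FPKM + 1), Dox less Cont, and understate the change of genes with low FPKM. Fold changes are ratios of mean FPKM.

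**Figure D1:**
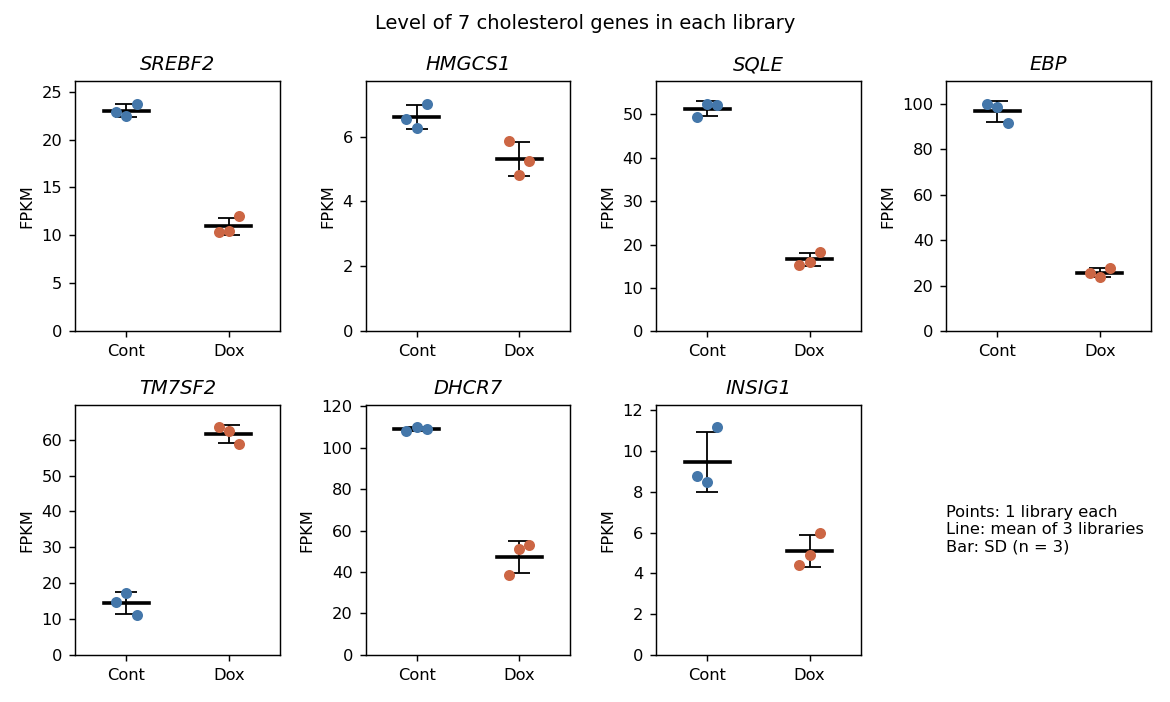
FPKM of the 7 cholesterol genes in each library, on linear axes from 0. Points are the 3 Cont and 3 Dox libraries, the line is the mean and the bar the SD. TM7SF2 is the only panel with Dox above Cont, and HMGCS1 has the narrowest gap (Cont from 6.26, Dox up to 5.88).

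**Figure D2:**
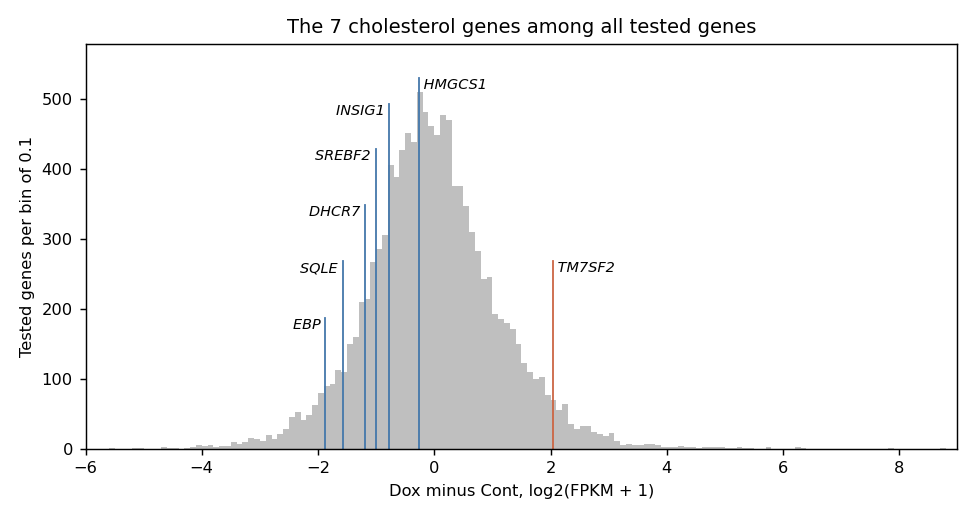
Number of tested genes per bin of 0.1 against the log2(FPKM + 1) change, Dox minus Cont, for 11526 genes. Lines mark the 7 cholesterol genes: HMGCS1 lies in the centre of the distribution, EBP in the lower tail and TM7SF2 in the upper tail.

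The regulators come first. SREBF2 (chromosome 22, 41833079 to 41907308, GRCh38) had FPKM of 22.8, 22.5 and 23.7 in Cont and of 10.3, 10.5 and 12.0 in Dox. The lowest Cont library was well above every library of Dox. Mean FPKM was 23.0 ± 0.648 and 10.9 ± 0.919 (SD, n = 3), 2.10-fold lower in Dox (log2 change -1.01, SE 0.08, limma adjusted p = 1.48e-06). Of all tested genes, 16.4% had a lower change. An antisense gene, SREBF2-AS1, shares 280 exon bases with SREBF2, whose longest transcript has 5699. Whether counting used strand is unknown, so reads of the 2 genes in the shared bases cannot be told apart.

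INSIG1 (chromosome 7, 155297776 to 155310235), whose protein retains SREBP2 in the endoplasmic reticulum and which is itself an SREBP target, had FPKM of 8.77, 8.49 and 11.2 in Cont and of 4.43, 4.92 and 5.99 in Dox. Cont replicate 3 stood above the other Cont libraries, and no Dox library reached a Cont library. Mean FPKM was 9.48 ± 1.47 and 5.11 ± 0.794 (SD, n = 3), 1.85-fold lower in Dox (log2 change -0.78, SE 0.13, limma adjusted p = 0.000289). The INSIG1 to SREBF2 ratio of FPKM was 0.378 to 0.470 in Cont and 0.429 to 0.499 in Dox, ranges that overlap.

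The enzymes did not fall by like amounts. HMGCS1 (chromosome 5, 43289395 to 43313512), the cytosolic HMG-CoA synthase gene that feeds the mevalonate pathway, had FPKM of 6.55, 6.26 and 7.01 in Cont and of 5.88, 4.83 and 5.25 in Dox. The groups came close, with Dox replicate 1 just under Cont replicate 2. The means were 6.61 ± 0.378 and 5.32 ± 0.528 (SD, n = 3), 1.24-fold lower in Dox (log2 change -0.27, SE 0.10, limma adjusted p = 0.0252). This call depended on the setting. It ended when values were rescaled to TPM (-0.18, limma adjusted p = 0.140), to TPM without the 13 mitochondrially encoded genes (-0.033, limma adjusted p = 0.791) or by median-of-ratios (-0.21, limma adjusted p = 0.0728). It also ended without Cont replicate 1 (limma adjusted p = 0.0591), Cont replicate 3 (0.0687) or Dox replicate 2 (0.0941). The mitochondrially encoded genes took 3.00% to 4.67% of summed FPKM in Cont and 13.2% to 14.7% in Dox, and the median over all tested genes stood at -0.06 in FPKM, 0.04 in TPM and 0.19 in TPM without them. An antisense gene, AC114947.2, shares 703 exon bases with HMGCS1.

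SQLE (chromosome 8, 124998497 to 125022283), the squalene epoxidase gene at a rate-limiting step after squalene, had FPKM of 49.3, 52.5 and 52.2 in Cont and of 15.4, 16.0 and 18.3 in Dox. The groups were far apart and tight. Mean FPKM was 51.3 ± 1.73 and 16.6 ± 1.54 (SD, n = 3), 3.10-fold lower in Dox (log2 change -1.58, SE 0.08, limma adjusted p = 6.29e-08). The HMGCS1 to SQLE ratio of FPKM went from 0.129 ± 0.00825 to 0.324 ± 0.0513 (SD, n = 3), and the 3 Dox values (0.287 to 0.382) were above the 3 Cont values (0.119 to 0.134). With 3 against 3, an exact permutation test of such a ratio cannot go below p = 0.10.

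EBP (chromosome X, 48521158 to 48528716), the sterol isomerase gene that moves a ring double bond, fell the most of the 7. Its FPKM was 100.1, 98.6 and 91.5 in Cont and 25.7, 23.8 and 27.6 in Dox. The means were 96.8 ± 4.60 and 25.7 ± 1.93 (SD, n = 3), 3.76-fold lower in Dox (log2 change -1.87, SE 0.08, limma adjusted p = 1.48e-08). Only 4.62% of tested genes had a lower change.

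DHCR7 (chromosome 11, 71428193 to 71452868) encodes the reductase of the last step to cholesterol from 7-dehydrocholesterol. It had the highest level of the 7 in Cont, with FPKM of 108.2, 109.8 and 109.0, and was at 38.6, 51.0 and 52.8 in Dox. The Cont libraries were close together, while Dox replicate 1 was apart from the rest of Dox. Mean FPKM was 109.0 ± 0.772 and 47.5 ± 7.74 (SD, n = 3), 2.30-fold lower in Dox (log2 change -1.20, SE 0.11, limma adjusted p = 3.71e-06).

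TM7SF2 (chromosome 11, 65111845 to 65116384), one of a pair of sterol C14 reductase genes, went the other way. Its FPKM was 14.7, 17.3 and 11.2 in Cont and 63.4, 62.4 and 58.8 in Dox. Every Dox library was above every Cont library, with the wider relative spread in Cont. The means were 14.4 ± 3.06 and 61.5 ± 2.44 (SD, n = 3), 4.27-fold higher in Dox (log2 change 2.04, SE 0.13, limma adjusted p = 2.82e-07), and 4.01% of tested genes had a higher change. The gene shares 16 exon bases with its neighbour VPS51 on the same strand. VPS51 was at 51.7 ± 6.19 and 57.3 ± 6.49 (SD, n = 3) and did not pass the test (log2 change 0.15, limma adjusted p = 0.232).

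These changes reordered the levels. In Cont the order by FPKM was DHCR7, EBP, SQLE, SREBF2, TM7SF2, INSIG1 and HMGCS1, and neighbours did not overlap, though the lowest TM7SF2 library was only just above the highest INSIG1 library. In Dox it was TM7SF2, DHCR7, EBP, SQLE, SREBF2, HMGCS1 and INSIG1. HMGCS1 and INSIG1 overlapped there (4.83 to 5.88 against 4.43 to 5.99), and the other neighbours did not. TM7SF2 thus went from the fifth of the 7 levels to the first. Among all tested genes its mean went from percentile 50.1 to 84.0, while EBP went from 87.8 to 66.5 and SQLE from 79.0 to 55.1.

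The other gene of the C14 reductase pair, LBR, which also encodes a lamin receptor of the inner nuclear membrane, fell from 55.8 ± 1.93 to 34.3 ± 5.55 (SD, n = 3; log2 change -0.70, limma adjusted p = 0.000144). TM7SF2 made up 21.4%, 23.7% and 16.2% of the summed FPKM of both genes in the Cont libraries and 67.9%, 65.9% and 59.1% in the Dox libraries. The summed level itself went from 70.2 ± 2.25 to 95.9 ± 3.11 (SD, n = 3). The INSIG genes shifted in the opposite sense to each other. INSIG2, whose protein also retains SREBP2 but which is not known as an SREBP target, rose from 19.4 ± 3.11 to 75.6 ± 5.35 (SD, n = 3; log2 change 1.92, limma adjusted p = 1.33e-07). INSIG1 made up 27.8%, 30.9% and 40.2% of the summed FPKM of both INSIG genes in Cont and 5.52%, 5.74% and 7.87% in Dox. That sum went from 28.9 ± 2.26 to 80.7 ± 4.82 (SD, n = 3). In both pairs the shares of the 2 groups did not overlap, while FPKM did not overlap in 82.1% of all tested genes. An exact permutation test of such shares, with 3 libraries against 3, cannot go below p = 0.10.

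**Figure D3:**
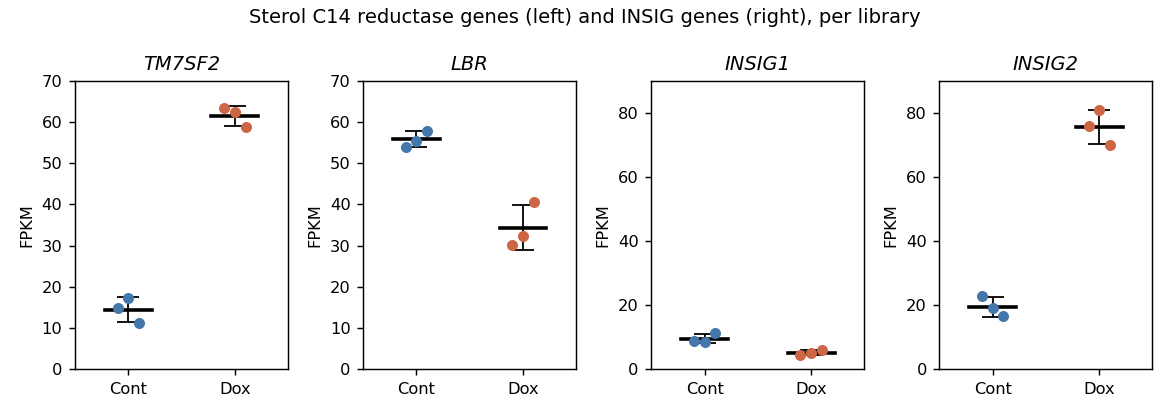
FPKM per library of TM7SF2 and LBR (left, axes to 70) and of INSIG1 and INSIG2 (right, axes to 90), with mean line and SD bar. TM7SF2 is below LBR in Cont and above it in Dox, and INSIG2 rises to 70.1 to 80.8 while INSIG1 stays at or below 11.2.

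The rest of the pathway was read in order of its steps, from lists that contain the 7 genes. Of 9 genes described from acetyl-CoA to squalene, 6 fell, 2 rose and 1 did not pass (median log2 change -0.38). ACAT2, an acetoacetyl-CoA thiolase gene, had a mean FPKM of 38.9 ± 2.42 in Cont and 2.59 ± 0.371 in Dox (SD, n = 3), 15.0-fold lower (-3.48, limma adjusted p = 2.25e-09). MVK, the mevalonate kinase gene, was at 0.13 (limma adjusted p = 0.282). The next genes, PMVK (-0.93), MVD (-0.47), IDI1 (-0.38) and the farnesyl diphosphate synthase gene FDPS (-1.50), fell. The call of IDI1 ended when TPM left out mitochondrially encoded genes (-0.11, limma adjusted p = 0.193), where MVK passed (0.40, limma adjusted p = 0.00521). FDFT1, the squalene synthase gene just before SQLE, rose from a mean FPKM of 153 ± 8.46 to one of 285 ± 9.01 (SD, n = 3; change 0.89, limma adjusted p = 9.42e-07). GGPS1, which makes the side product geranylgeranyl diphosphate, rose as well (0.38, limma adjusted p = 0.00435).

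From squalene to cholesterol, 6 of 10 described genes fell, 3 rose and 1 did not pass (median log2 change -0.70). Beside SQLE, EBP, DHCR7 and LBR, the falls were those of CYP51A1 (-0.71), a demethylase gene, and NSDHL (-0.73). CYP51A1 was low, at a mean FPKM of 2.85 ± 0.235 in Cont and 1.36 ± 0.0757 in Dox (SD, n = 3). Its mean was 2.10-fold lower in Dox, and that of NSDHL 1.70-fold lower. Beside TM7SF2, the rises were those of HSD17B7 (0.86, limma adjusted p = 1.20e-05) and SC5D (0.27, limma adjusted p = 0.0419). SC5D overlapped between groups and lost its call without Cont replicate 1 (limma adjusted p = 0.129), Cont replicate 2 (0.153), Dox replicate 2 (0.107) or Dox replicate 3 (0.0894), under quantile normalization (0.163) and with no filter (0.0505). MSMO1 did not pass (-0.07, limma adjusted p = 0.501). IDI2 and LSS were not analysed here. Over both stretches of the pathway 12 of 19 described genes fell and 5 rose, 63.2% and 26.3%, beside 42.8% and 37.6% of all tested genes. The 19 include the members HMGCS1, SQLE, TM7SF2, EBP and DHCR7, so these shares partly repeat the changes of the members.

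**Figure D4:**
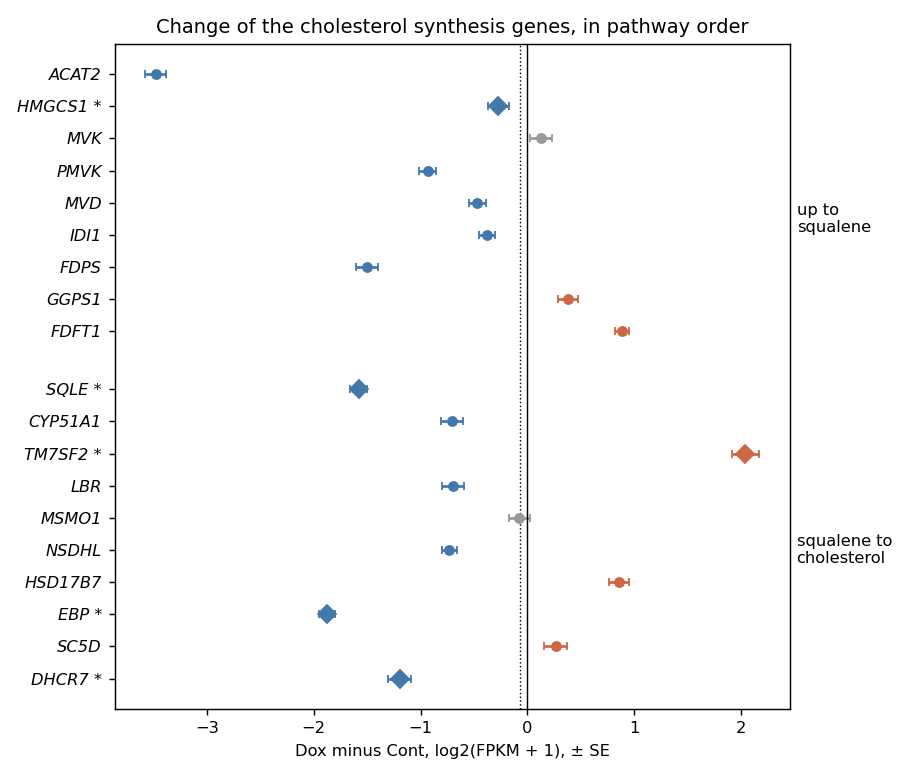
Change of 19 cholesterol synthesis genes in pathway order (x axis, difference of log2(FPKM + 1), Dox less Cont, with SE). Diamonds with an asterisk are members of the set of 7, blue and orange are calls lower and higher in Dox, grey did not pass, and the dotted line is the median of all tested genes. GGPS1 (0.38) and FDFT1 (0.89) lie between FDPS (-1.50) and SQLE (-1.58) with the opposite sign. TM7SF2 (2.04) does so between CYP51A1 (-0.71) and LBR (-0.70).

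All 14 described genes of SREBP processing and sterol-regulated protein degradation passed the test, 6 higher and 8 lower (median log2 change -0.41). These are 42.9% and 57.1% of the list, beside 37.6% and 42.8% of all tested genes, of which 80.4% passed. SCAP, the escort gene, was at 0.24 (limma adjusted p = 0.0255), a call that ended without Cont replicate 2 (limma adjusted p = 0.0630), Cont replicate 3 (0.0672), Dox replicate 1 (0.0530) or Dox replicate 2 (0.0826). The protease genes moved apart: MBTPS1 (site-1 protease) rose and MBTPS2 (site-2 protease) fell. SPRING1, listed in the table under an older symbol and known to license site-1 protease, rose. MARCHF6, a ubiquitin ligase gene whose product marks squalene epoxidase for degradation, rose from a mean FPKM of 41.1 ± 3.15 to one of 96.6 ± 1.96 (SD, n = 3, change 1.22, limma adjusted p = 1.74e-07). Proteins were not measured, and a link to the fall of SQLE mRNA was not tested. Of the ERLIN genes, whose products form a complex in the endoplasmic reticulum, ERLIN1 fell (-1.20) and ERLIN2 rose (0.75). Among the other degradation genes UBE2G2 (-0.80), RNF139 (-0.61), UBE2J2 and UBXN2A fell. The UBXN2A call ended when TPM left out mitochondrially encoded genes (-0.07, limma adjusted p = 0.477).

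Genes of LDL uptake and of cholesterol export from lysosomes were mixed: of 11 described, 2 rose, 4 fell and 5 did not pass (median log2 change -0.09, beside -0.06 for all tested genes). The shares, 18.2% higher and 36.4% lower, stand beside 37.6% and 42.8% of all tested genes, so the list gives no direction of its own. MYLIP, a ubiquitin ligase gene whose product marks lipoprotein receptors for degradation, rose from a mean FPKM of 2.23 ± 0.254 to one of 5.11 ± 1.70 (SD, n = 3; change 0.88, limma adjusted p = 0.00175). The receptor genes LRP1 (1.30), VLDLR (-0.76) and SCARB1 (-1.48) passed in different directions. LIPA (-0.40) and GRAMD1A (-0.51) fell, calls that ended in TPM with mitochondrial genes left out (limma adjusted p = 0.147 and 0.0523). NPC1 (-0.16), NPC2 (0.13), STARD3 (-0.09), STARD4 (0.15) and OSBP (0.16) did not pass. For NPC1, Cont replicate 3 stood apart at FPKM 263, beside 161 and 166 in the other Cont libraries and 163 to 182 in Dox. Without Cont replicate 3 its change was 0.065. Of the genes that did not pass, NPC2 and OSBP passed as rises in each of the scaling alternatives and STARD4 in TPM without mitochondrially encoded genes. In that scaling 5 of the 11 rose and 2 fell. GRAMD1B was not analysed here.

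**Figure D5:**
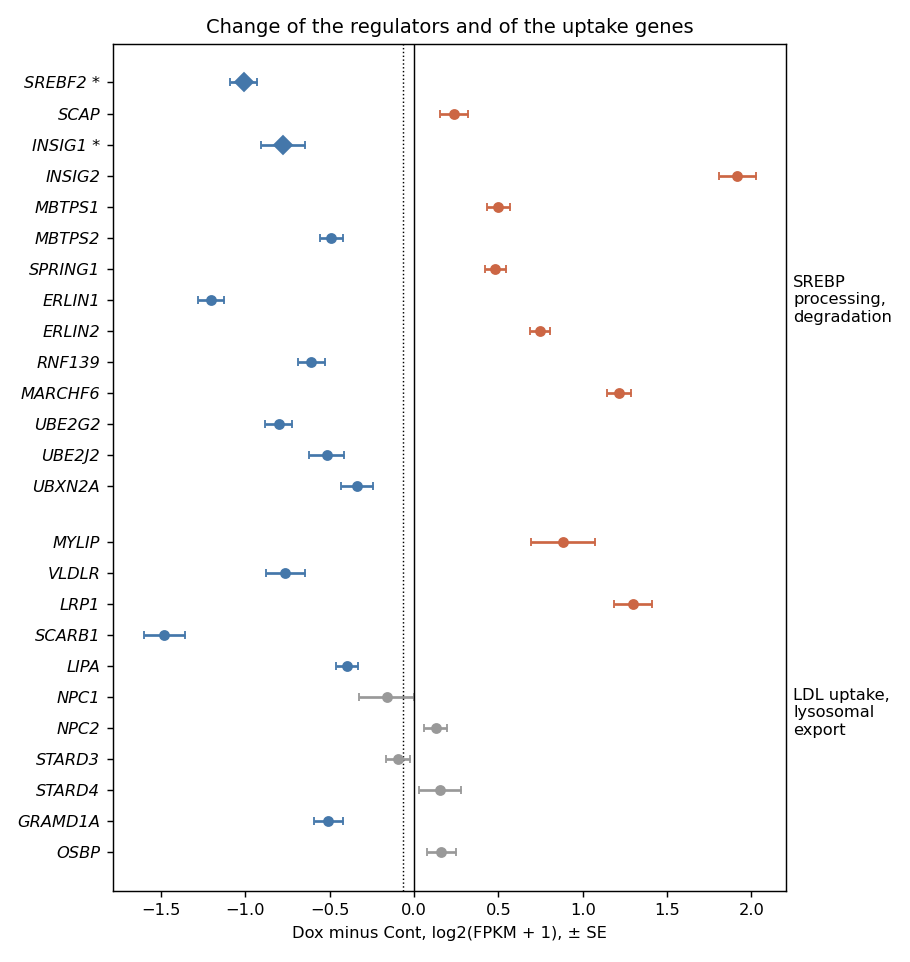
Change of the SREBP processing and degradation genes (upper block) and of the LDL uptake and lysosomal export genes (lower block), as differences of log2(FPKM + 1), Dox less Cont, with SE. Symbols and colours are as for the enzymes: blue lower, orange higher, grey not passed, diamonds for members of the set of 7. INSIG1 (-0.78) and INSIG2 (1.92), and LRP1 (1.30) and SCARB1 (-1.48), lie on opposite sides of 0.

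Of 7 tested genes of esterification, efflux and oxysterol sensing, 3 rose and 2 fell (42.9% and 28.6%, beside 37.6% and 42.8% of all tested genes), with the largest rise in the oxysterol-binding protein gene OSBPL2 (1.10) and the largest fall in NCEH1, a cholesteryl ester hydrolase gene (-1.01). Of 9 genes on other branches of the mevalonate pathway, 1 rose and 6 fell (11.1% and 66.7%, beside the same shares of all tested genes). PGGT1B, a subunit of a protein prenyltransferase, rose (0.44, limma adjusted p = 0.00697; 0.25 and limma adjusted p = 0.0751 under quantile normalization). PDSS1, a subunit of the synthase of the coenzyme Q tail, had the largest fall (-2.01, limma adjusted p = 2.91e-07).

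The genes nearest in pattern to each of the 7 were found among 11452 tested genes outside the lists, by the root mean square distance between centred log2(FPKM + 1) profiles over the 6 libraries. They were MVP and LRRC42 for SREBF2 (distances 0.0162 and 0.0305), TMEM159 and ZMYM3 for INSIG1 (0.0245 and 0.0357), and COG2 and ARFGAP3 for HMGCS1 (0.0214 and 0.0260). FTL and SEPHS1 were nearest to SQLE (0.0217 and 0.0376), NDST1 and YARS1 to EBP (0.0239 and 0.0318), TMEM214 and METTL23 to DHCR7 (0.0449 and 0.0459), and TRPC1 and HECW2 to TM7SF2 (0.0677 and 0.0693). Within the 7 the nearest pair was SREBF2 and DHCR7 (0.145), followed by SREBF2 and INSIG1 (0.156) and by SQLE and EBP (0.167). The farthest was EBP and TM7SF2 (1.96). All profiles come from the same 6 libraries, and 80.4% of tested genes changed between the groups.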

How the data were processed

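RNA was measured in 6 libraries of the human line SNU449, 3 Cont and 3 Dox. Libraries came from poly(A)-captured RNA, per the labels' protocols. FastQC 0.11.7 and the build GRCh38 are named in the submitters' processing notes. The aligner, counting tool, annotation and gene filter are not given in the sources used here. The authors deposited log2 FPKM (-8.59 to 13.9) with a small offset added, though the table is named as FPKM. The deposited log2 values were turned back into FPKM by raising 2 to each. Column Cont1 was matched by title, since the description of its sample names the Cont2 column.

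Limma 3.58.1 in R 4.3.3 was run on log2(FPKM + 1) with a mean-variance trend, two-sided, over genes that reached FPKM 1 in 3 or more libraries, with Benjamini-Hochberg adjustment over all 11526. The fit was tested on simulated data. Coordinates are from GENCODE 29 (GRCh38). Relative depth came from low values of 307 genes whose lowest value was shared by at least 2 libraries. For each library the scale was chosen that brought such values nearest to whole read numbers. On that scale the values up to 20 reads, 27 to 81 per library, were within 0.05 reads of whole numbers (100% in each library). This describes the fit and is not a separate check of it. Read numbers use the longest transcript, the scale on which 39.4% of floor genes lay within 2%, and are rough.

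The members, gene lists, naming rule (all members, each tested pathway gene in order with values for up to 8 of a list by size and those not passing, the largest rise and fall of 2 side lists, and the nearest genes) and alternatives were chosen with earlier results of these data known. A few genes of the pathway lists are not reported here, and list counts are over the rest. Values for LBR, SC5D, SCAP and UBXN2A were added after they were seen. SPRING1 was matched by its RefSeq synonym. Alternatives were pseudocounts of 0.1 and 0.01, the deposited log2 values, no filter, FPKM of at least 5, TPM, TPM without mitochondrially encoded genes, median-of-ratios, quantile normalization, no trend, robust moderation, a replicate block, and leaving out each library.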

Additional observations from a re-analysis of the deposited data

How the results depend on the processing

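SREBF2, SQLE, EBP, TM7SF2, DHCR7 and INSIG1 kept direction and call in all 18 alternatives. The log2 change ran from -1.08 to -0.77 for SREBF2, -1.65 to -1.33 for SQLE, -1.93 to -1.61 for EBP, 1.88 to 2.35 for TM7SF2, -1.28 to -0.93 for DHCR7 and -0.89 to -0.56 for INSIG1. HMGCS1 lost its call in TPM without mitochondrially encoded genes (-0.033), TPM (-0.18) and median-of-ratios scaling (-0.21), and ran from -0.33 to -0.21 when 1 library was left out. The causes were not tested. The split of calls over all genes moved from 46.7% higher to 59.0% in TPM without mitochondrially encoded genes (5477 higher, 3810 lower, against 4329 and 4936). In that scaling 5 uptake genes and 2 genes of the other mevalonate branches were higher and 2 uptake genes were lower. Quantile normalization, TPM and median-of-ratios scaling each gave 4 uptake genes higher. With no filter, 5 esterification and efflux genes were higher, and with the filter at FPKM 5, 0 genes of the other branches and 1 uptake gene, as fewer or more genes were tested. Signs turned for genes that had not passed. In TPM without mitochondrially encoded genes the changes were 0.19 for MSMO1, 0.12 for NPC1 and 0.18 for STARD3. In TPM they were 0.031 for MSMO1 and 0.016 for STARD3, and with quantile normalization 0.088 for NPC1 and 0.016 for STARD3. With 1 library left out, MSMO1 ran from -0.15 to 0.0017 and NPC1 from -0.29 to 0.065. Whether replicate numbers pair the Cont and Dox libraries was not stated, and with 3 libraries a group correlations cannot settle it. In their deviations from the group means across genes, same-numbered libraries correlated at 0.037, -0.0048 and 0.079. Libraries with different numbers correlated at -0.093 to 0.092, and not every library was closest to its own number. With the replicate number as a block, 9272 genes were called in place of 9265, and HMGCS1 kept its call (limma adjusted p = 0.0287). The depth of each library is known only from the steps of low values, and 3 libraries a group limit the error estimate.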
